A study of Mus musculus with 20 samples.

Results

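The comparison described here set 4 spleen libraries from mice bred gluten-free against 8 from control mice, all of them carrying a plain number as ID (controls 1 to 8 and gluten-free 7 to 10). These are 12 of the 20 libraries of the series. Membership follows the form of the ID in the labels. The other 8 libraries, 3 control and 5 gluten-free, have IDs that begin with the letter S, whose meaning the labels do not state. Whole spleens were taken at age 4 weeks. The groups differ in diet alone as far as the labels say. Strain, sex, litter and the composition of either diet are not given, and nothing says that each ID is a separate mouse, so p-values measure the spread between these libraries, which may be technical. The question set by the title and design is how spleen gene expression differs between control mice and mice bred without gluten.

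The spleen filters blood through its red pulp, where macrophages take up old red cells and recover their iron, and holds B and T cells in its white pulp. In young mice the red pulp is also a site of blood formation, where erythroblasts divide, fill with haemoglobin and expel their nucleus beside megakaryocytes and granulocyte precursors. A bulk library averages all of these cells, so a lower count can come from fewer cells of a type or from less of that RNA per cell, and the data cannot tell these apart.

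Values are CPM, counts brought to a common library size and then scaled by TMM, which sets libraries to a common level for most genes. Every CPM is therefore relative to the other RNAs of the same library. Library totals ran from 13626021 to 19719591 counts in control and from 16134584 to 22501138 counts in gluten-free libraries. The tissue label was checked against a spleen marker: Spic, the factor of red pulp macrophages, lay between 43.7 and 66.9 CPM in the controls and between 49.3 and 55.5 CPM with the gluten-free diet. One control stood apart. On the first principal component of log2 CPM, which held 35.7% of the variance, control 8 scored 18.3, the other controls -45.7 to -18.4, and the gluten-free libraries 44.5 to 60.2. Of the genes called below, 52.3% lay nearer to the gluten-free mean than to the control mean in control 8, against 3.32% to 16.6% in the other controls. Results are therefore given with control 8 and, where it matters, without it. Control 5 is described separately near the end.

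**Figure D1:**
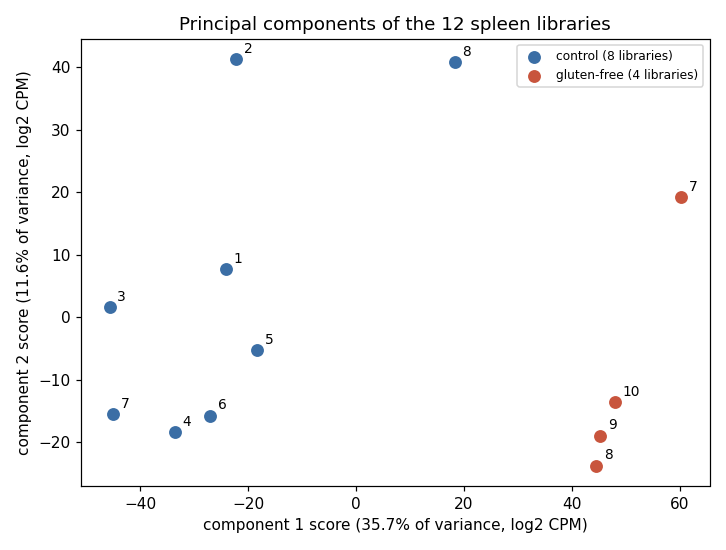
Scores of the 12 libraries on the first 2 principal components of log2 CPM, with the share of variance on each axis and the ID beside each point. The 4 gluten-free libraries lie at 44.5 or above on component 1 and control 8 at 18.3, between them and the other 7 controls.

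A large share of the transcriptome differed by diet. With edgeR's quasi-likelihood test over the 12 libraries, 7266 of 18362 genes (39.6%) were called at an adjusted p under 0.05. Of these, 3216 (17.5% of genes tested) were higher and 4050 (22.1%) were lower with the gluten-free diet. Among 14470 protein-coding genes 44.9% were called. Called differences of at least 1.5-fold numbered 3713 (20.2%), and at least 2-fold differences were fewer, 475 higher (2.59%) and 817 lower (4.45%). In 3863 genes (21.0%) the 4 gluten-free values and the 8 control values did not overlap, 1254 of them higher (6.83%) and 2609 lower (14.2%). Without control 5 the test called 7381 genes (40.2%), 6893 of them shared with the full set in the same direction, and without control 8 it called 8684 (47.3%, with 23.3% of genes tested higher), of which 7204 were shared. Without both it called 8872 (48.3%). The split of directions depended on the scaling. TMM gave 44.3% of calls as higher, RLE 45.2%, upper quartile 57.3%, and the plain library total 76.1% (6522 higher and 2043 lower), with no gene called in opposite directions by TMM and another scaling. The median log2 fold change of all genes was 0.04 with TMM and 0.31 with the library total, a shift of 0.27, so small differences are relative to that choice. A list is read below against the 17.5% and 22.1% of all genes, which are shares with TMM. A count given with the library total has another background, the 6522 higher and 2043 lower of 18362 genes. More rises and fewer falls are therefore found with it in any list.

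**Figure D2:**
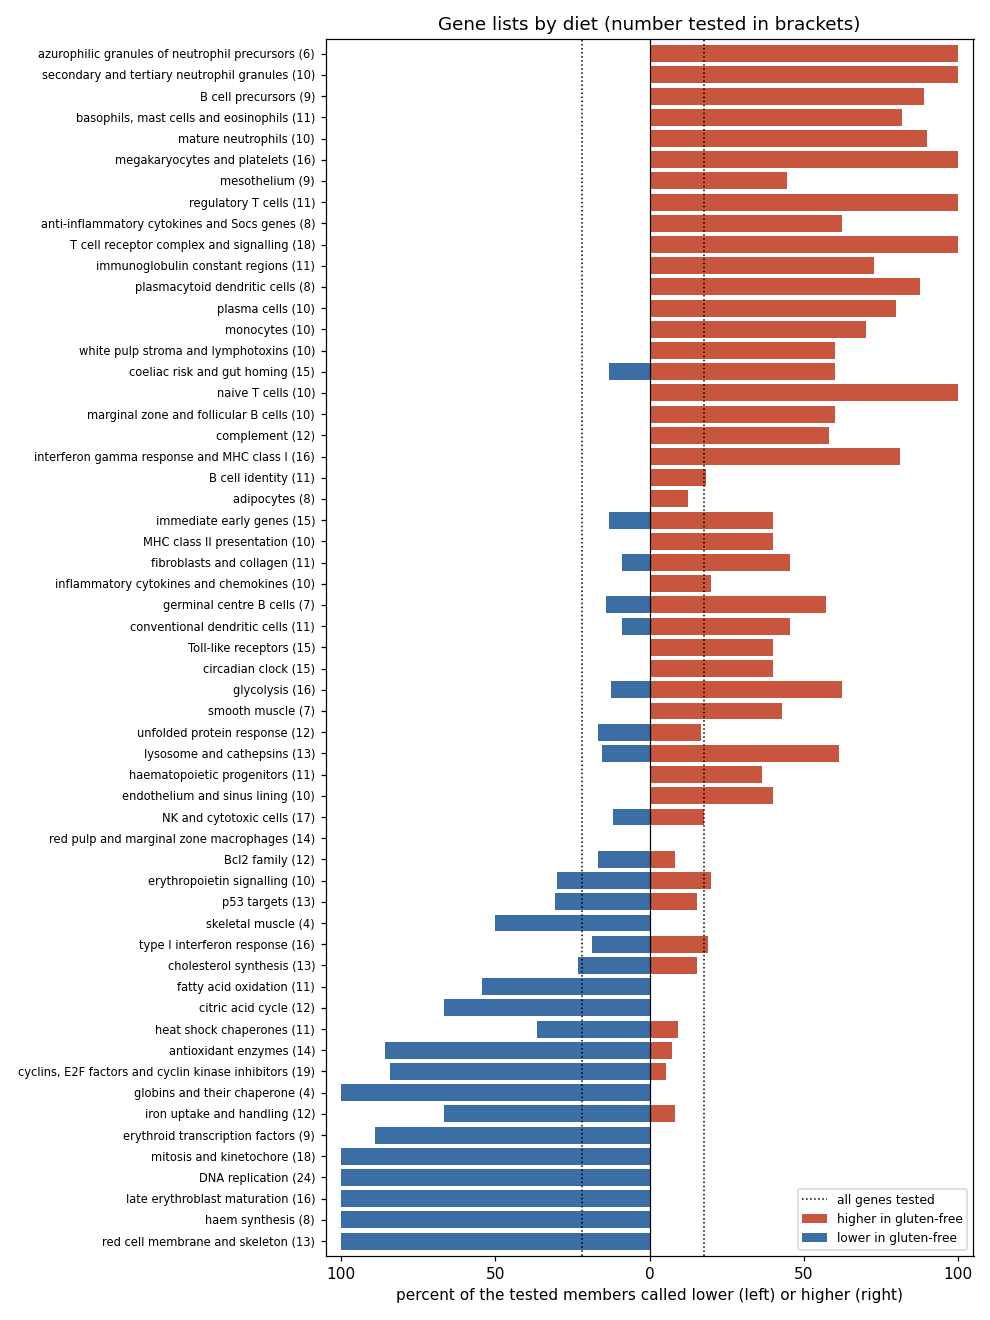
Percent of the tested members of each gene list called higher (right) or lower (left) in gluten-free libraries, with the number tested in brackets and dotted lines at 17.5% and 22.1%, the shares of all genes tested. The 6 azurophilic granule genes are at 100% on the right and the 13 red cell membrane genes at 100% on the left. The pancreatic acinar list is left out because its calls rest on control 4.

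Lower with the gluten-free diet were the genes that build red cells. All 8 enzymes of haem synthesis, all 13 genes of the red cell membrane and skeleton, 8 of 9 erythroid transcription factors and all 16 genes of late erythroblast maturation fell, with median log2 fold changes of -1.26, -1.37, -0.96 and -1.14. The median over all genes was 0.04. Each of these counts was the same without control 8, and with the library total as scaling the counts lower were 8, 13, 7 and 16. The summed level of the membrane list was 9449 to 17388 CPM in controls and 4126 to 7380 CPM with the gluten-free diet.

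Klf1, the transcription factor that switches on globin and membrane genes, had 169, 220, 208 and 205 CPM in gluten-free 7, 8, 9 and 10. The controls ran from 296 CPM in control 8 over a median of 556 to 744 CPM in control 3. The groups did not overlap, and the log2 fold change was -1.47 ± 0.19 (SE, edgeR adjusted p = 3.17e-05). Alas2, which makes the first intermediate of haem in erythroblasts, had 679, 1249, 1063 and 892 CPM against 1326 to 2364 CPM in controls (median 2117), a log2 fold change of -1.03 ± 0.17 (edgeR adjusted p = 0.000233). Control 8 was again the lowest control and stayed above gluten-free 8, the highest gluten-free library. Rhag, a membrane protein of the Rh complex, had 94.2, 158, 141 and 144 CPM against 234 to 482 CPM (median 369), and Add2, an adducin of the membrane skeleton, fell by 1.49 on the log2 scale. Neither gene's groups overlapped. The enzyme genes Uros and Ppox fell by 1.31 and 1.16 on the log2 scale, and Tal1, a factor of the erythroid complex, by 1.14. Gata1, the master factor of the lineage, fell by 0.96, but its groups overlapped because control 8 had 157 CPM and gluten-free 9 had 178 CPM. Bcl11a, which silences embryonic globins, had -0.21 and did not pass the test.

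The promoters of 3 of these genes are shown because members of the erythroid lists fell together and GATA and CCAAT sequences are known elements of such promoters. Sequences are RefSeq's on GRCm38.p6, from the 250 bases before the annotated start, cut where a GENCODE exon begins. Capitals mark TGATAA or AGATAA, the letters of GATA sites, and CCAAT, each on either strand. Klf1 is at chr8:84901732-84901927 on the plus strand, Alas2 at chrX:150547167-150547374 on the plus strand and Rhag at chr17:40810899-40811125 on the plus strand.
Klf1: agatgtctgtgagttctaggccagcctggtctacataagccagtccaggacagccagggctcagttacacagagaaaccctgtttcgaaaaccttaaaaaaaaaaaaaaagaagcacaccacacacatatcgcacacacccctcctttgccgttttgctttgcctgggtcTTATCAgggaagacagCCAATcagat
Alas2: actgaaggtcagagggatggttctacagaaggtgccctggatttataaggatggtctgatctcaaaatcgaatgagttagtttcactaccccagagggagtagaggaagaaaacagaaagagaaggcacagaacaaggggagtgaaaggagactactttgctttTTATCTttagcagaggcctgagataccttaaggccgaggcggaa
Rhag: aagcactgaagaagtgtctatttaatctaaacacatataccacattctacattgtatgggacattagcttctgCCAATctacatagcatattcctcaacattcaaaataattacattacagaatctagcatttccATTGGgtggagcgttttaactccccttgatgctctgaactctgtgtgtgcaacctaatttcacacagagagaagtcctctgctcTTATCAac
Each of the 3 stretches holds 1 GATA match. Klf1 also holds 1 CCAAT and Rhag 2. Of all 32851 RefSeq promoters given, 16.6% hold a GATA match in the 250 bases and 33.8% a CCAAT. Among promoters of the protein-coding genes tested that had one, the shares were 9.83% and 36.1%. The 3 were picked after the search, and a match is a description of letters, not a shown binding site.

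The globins fell less and less evenly. Hbb-bs, the main adult beta globin, had 19477, 28782, 25815 and 27615 CPM in gluten-free 7 to 10 and 28197 (control 8) to 58186 CPM in controls, a log2 fold change of -0.87 ± 0.20 (edgeR adjusted p = 0.00314). Hba-a1, an alpha globin, had 29853, 60021, 53940 and 44737 CPM against 40326 (control 8) to 103850 CPM, with -0.79 ± 0.26 (edgeR adjusted p = 0.0248). Hbb-bs overlapped through control 8 alone, and Hba-a1 through controls 2 and 8. All 4 tested genes of the globin list passed with TMM, and 2 with the library total. Hba-a2 and Hbb-bt fell by 1.02 and 0.90. These genes are near-identical pairs, so reads may have been split between them in counting, and the pairs are surer than their members. As a share of all counts the globins held 13.3% ± 2.95 (SD, n = 8) in control and 9.17% ± 1.93 (SD, n = 4) in gluten-free libraries, a difference that did not pass after adjustment over 12 library measures (exact permutation p = 0.0364, two-sided, adjusted p = 0.0623). Controls 3 to 7 held at most 15.6%, controls 1 and 2 held 11.2% and 9.86%, and control 8 held 8.45%, inside the gluten-free range of 6.57% to 11.1%.

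Genes that bring iron into erythroblasts fell, and those that release it from macrophages did not pass the test. Of 12 iron genes tested 8 fell and 1 rose. Tfrc, the transferrin receptor, had 514, 679, 636 and 629 CPM against 991 (control 8) to 2057 CPM, without overlap and with a log2 fold change of -1.40 ± 0.16 (edgeR adjusted p = 1.73e-05). Slc25a38, the mitochondrial glycine carrier for haem synthesis, fell by 1.21. The macrophage genes Slc40a1, the iron exporter, and Hmox1, the haem oxygenase, had -0.32 and -0.23 (edgeR adjusted p = 0.0625 and 0.285). Erfe, the hormone by which erythroblasts lower hepcidin, was low in all libraries, at 1.05, 1.78, 0.905 and 1.49 CPM against 2.57 (control 8) to 9.41 CPM. Of 10 genes of erythropoietin signalling 3 fell and 2 rose, near the shares of all genes, and the median log2 fold change was -0.05 with TMM and 0.23 with the library total. Epor, the receptor, fell by 1.25 and its groups did not overlap, while Jak2 and Stat5a had -0.07 and -0.10 and were not called. Cish, a feedback inhibitor of this pathway and of others, rose by 0.77.

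Most listed genes of antioxidant enzymes, a general list and not one of red cells, were lower as well. Of 14 tested, 12 fell and 1, Prdx5, rose. Prdx2, an abundant red cell peroxiredoxin, had 625, 930, 906 and 812 CPM against 1311 (control 8) to 2884 CPM (-1.48 ± 0.20, edgeR adjusted p = 3.58e-05). Gpx1, a glutathione peroxidase, had 1243, 1955, 1794 and 1638 CPM against 2374 (control 8) to 4361 CPM. Every gluten-free value of both genes lay below every control. Of 16 glycolysis genes 10 rose and 2 fell, with a median of 0.32. The 2 that fell were Pfkm, a phosphofructokinase, and Hk1, a hexokinase, by 1.15 and 0.78. Among those that rose were Pkm, Pfkp, Hk2 and Hk3, by 0.78, 0.64, 0.71 and 0.88. Pfkl, a further phosphofructokinase, had -0.13 and was not called. Pkm, a pyruvate kinase of white cells and other tissues, had 406, 458, 459 and 505 CPM against 218 to 296 CPM in controls, and Pfkm had 36.4, 42.9, 45.2 and 39.4 CPM against 66.0 to 102 CPM. In the Bcl2 family Bcl2l1, which keeps late erythroblasts alive, fell by 0.74 and Bcl2, abundant in lymphocytes, rose by 0.69, and each gene's groups overlapped through control 8. The family as a whole had 1 gene higher and 2 lower of 12, and its median was -0.04 with TMM and 0.24 with the library total.

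Most listed genes of cell division were lower. All 24 DNA replication genes, all 18 genes of mitosis and the kinetochore, and 16 of 19 cyclins, E2F factors and inhibitors fell, with medians of -1.11, -1.10 and -0.84. Without control 8 the counts were the same 24, 18 and 16, and with the library total they were 24, 18 and 15. Cdc6, which loads the replicative helicase, had 64.8, 85.9, 85.9 and 79.8 CPM against 154 (control 8) to 272 CPM (median 250), a log2 fold change of -1.58 ± 0.14 (edgeR adjusted p = 8.81e-06). Ccne2 and Ccne1, the E cyclins that start S phase, fell by 1.60 and 1.55, and Ccne2 had 26.8, 33.5, 29.3 and 28.0 CPM against 55.9 (control 8) to 104 CPM. In these 3 genes the groups did not overlap and control 8 was the lowest control. Mcm5, a subunit of that helicase, had 172, 205, 208 and 206 CPM against 279 (control 8) to 497 CPM, and Mki67, the Ki-67 proliferation antigen, had 829, 1262, 1203 and 1110 CPM against 1764 (control 8) to 3236 CPM. Replication-dependent histone genes fell in 17 of 43 and rose in 1, and their share of counts, 0.0338% in control and 0.0342% in gluten-free libraries, did not pass the test (exact permutation adjusted p = 0.98). The D cyclins did not move together: Ccnd3, the D cyclin of erythroblasts, fell by 0.59, Ccnd2 rose by 0.47, and Ccnd1 had 0.35 and was not called. Among 13 targets of p53 4 fell and 2 rose, and the median of -0.09 turned to 0.19 with the library total. Cdkn1a, a cyclin kinase inhibitor in both lists, fell by 0.73, and Mdm2, which degrades p53, had -0.09 and was not called.

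**Figure D3:**
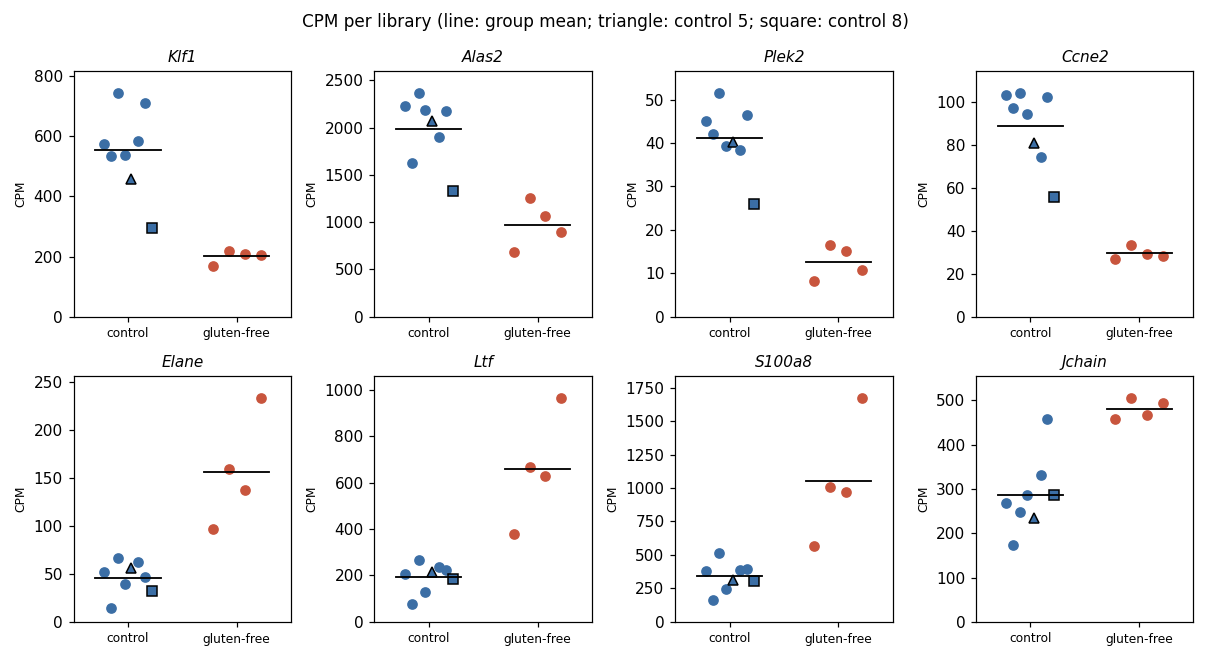
CPM of 8 genes in each of the 12 libraries, with a line at each group mean, a triangle for control 5 and a square for control 8. In Klf1, Alas2, Plek2 and Ccne2 control 8 is the lowest control and lies above all gluten-free libraries, and in Elane, Ltf and S100a8 all gluten-free libraries lie above all controls. Jchain overlaps, with control 7 at 459 CPM and gluten-free 7 at 458 CPM.

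The stretches before the RefSeq starts of Cdc6 and Mcm5 are shown because replication genes fell together and E2F sites are known in their promoters. Cdc6 is at chr11:98907982-98908150 on the plus strand and Mcm5 at chr8:75109259-75109508 on the plus strand. In Cdc6 the 81 bases furthest from the RefSeq start lie in a GENCODE exon and were removed. The counted Cdc6 gene begins at 98907801, so the 169 bases shown lie inside that gene, after a GENCODE exon. Capitals mark TTTCCCGC or TTTGGCGC, the letters of E2F sites, and CCAAT, on either strand.
Cdc6: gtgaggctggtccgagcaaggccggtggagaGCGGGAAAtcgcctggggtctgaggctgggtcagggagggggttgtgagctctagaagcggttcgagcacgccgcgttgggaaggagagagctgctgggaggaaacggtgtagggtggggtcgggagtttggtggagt
Mcm5: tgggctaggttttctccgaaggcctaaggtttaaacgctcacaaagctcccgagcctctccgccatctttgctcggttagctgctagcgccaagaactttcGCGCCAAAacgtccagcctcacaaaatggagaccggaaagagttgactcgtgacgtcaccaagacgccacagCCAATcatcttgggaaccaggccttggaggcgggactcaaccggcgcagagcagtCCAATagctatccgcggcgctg
Each holds 1 E2F match, and Mcm5 also holds 2 CCAAT. Both were picked after the search. An E2F match stands in 1.3% of all RefSeq promoters given, over the same 250 bases, and in 2.44% of those of the protein-coding genes tested that had one. Of 18 mitosis genes, 16 had a RefSeq promoter and 13 of those hold CCAAT, against 33.8% of all promoters. For DNA replication 19 of 24 genes had a promoter, of which 5 hold an E2F match. That is under the 80% needed to read the list as a whole.

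Higher with the gluten-free diet were the genes of granulocyte formation. All 6 azurophilic granule genes, made in neutrophil precursors, all 10 genes of secondary and tertiary granules and 9 of 10 genes of mature neutrophils rose, with medians of 1.80, 1.59 and 1.14. These counts were the same without control 8 and with each of the other scalings. Mpo, the myeloperoxidase, had 163, 315, 278 and 426 CPM in gluten-free 7 to 10 against 25.0 (control 2) to 117 CPM (control 5) in controls, with a log2 fold change of 1.97 ± 0.29 (edgeR adjusted p = 7.48e-05). Elane, the neutrophil elastase, had 96.6, 160, 137 and 233 CPM against 14.3 (control 2) to 66.2 CPM (1.77 ± 0.28, edgeR adjusted p = 0.00015). Ltf, the iron-binding lactoferrin of secondary granules, had 379, 669, 628 and 964 CPM against 78.0 (control 2) to 265 CPM (1.78 ± 0.26, edgeR adjusted p = 6.55e-05). The order of libraries was alike in these genes: control 2 was the lowest of all, gluten-free 7 the lowest of its group and gluten-free 10 the highest, and no gluten-free library fell within the controls. Lcn2, the siderophore-binding lipocalin, Mmp8, a collagenase, and Cd177, a surface protein of neutrophils, rose by 1.74, 1.68 and 1.67. S100a8, one chain of calprotectin, had 569, 1011, 972 and 1670 CPM against 165 to 514 CPM, and its partner S100a9 had 820, 1356, 1253 and 2135 CPM against 225 to 663 CPM. Of the receptors of mature neutrophils Cxcr2 and Csf3r rose by 0.98 and 0.68, less than the granule genes, and Il1r2 had 0.41 and was not called.

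Ltf is shown for its promoter, at chr9:111019042-111019270 on the plus strand, in which capitals mark TTGCNNAA, a C/EBP sequence, N being any base, on either strand. C/EBP factors are known to drive granule genes.
Ltf: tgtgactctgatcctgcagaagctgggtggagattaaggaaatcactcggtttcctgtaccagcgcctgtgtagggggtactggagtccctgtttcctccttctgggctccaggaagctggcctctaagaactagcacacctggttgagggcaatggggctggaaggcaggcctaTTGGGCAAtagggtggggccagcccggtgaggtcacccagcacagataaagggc
It holds 1 match. Of 26 genes in the 3 neutrophil lists, 24 had a RefSeq promoter and 7 of those hold a match. A match stands in 9.56% of all promoters and in 7.62% of those of the protein-coding genes tested. The printed promoter was chosen after the search.

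Other myeloid lineages were higher as well, with the macrophages as the exception. All 16 megakaryocyte and platelet genes rose (median 1.00). Thbs1, the platelet adhesion protein thrombospondin-1, had 311, 388, 419 and 312 CPM against 118 (control 8) to 245 CPM (control 5), and Vwf, the von Willebrand factor, had 165, 252, 264 and 185 CPM against 57.3 (control 8) to 164 CPM (control 5). Neither gene's groups overlapped. Control 8 was the lowest and control 5 the highest control for both. Of 10 monocyte genes 7 rose and none fell. Lyz2, the lysozyme of monocytes, macrophages and neutrophils, had 1531, 1522, 1554 and 2064 CPM against 583 to 1042 CPM (control 8), and F13a1, a clotting factor chain made by monocytes and megakaryocytes, rose by 1.44. Csf1r, the growth factor receptor of the whole lineage, had 0.29 and was not called (edgeR adjusted p = 0.0729). Plasmacytoid dendritic cell genes were higher in 7 of 8 and conventional dendritic cell genes in 5 of 11, with 1 lower. Siglech, a marker of the plasmacytoid cells, had 29.1, 28.5, 22.4 and 24.9 CPM against 7.10 to 19.8 CPM (control 8).

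None of 14 red pulp and marginal zone macrophage genes was called in either direction, and their median was 0.05. Without control 8, and without controls 5 and 8 together, the count stayed at 0, and with the library total 3 were called higher. Cd163, the haemoglobin scavenger receptor, had 18.7, 26.1, 23.2 and 21.5 CPM against 12.4 to 30.3 CPM, and Vcam1 had 221, 266, 279 and 257 CPM against 165 to 308 CPM, each gluten-free value lying inside the control range. Their log2 fold changes, -0.08 ± 0.21 and -0.01 ± 0.14, do not show that the levels were equal.

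Basophil, mast cell and eosinophil genes were higher in 9 of 11, and in 8 without control 4. Mcpt8, a basophil protease, had 4.42, 7.78, 5.35 and 5.08 CPM against 0.816 (control 8) to 2.76 CPM, and Hdc, the histamine-forming enzyme, had 13.8, 21.0, 18.6 and 26.7 CPM against 5.05 to 11.1 CPM. The eosinophil granule genes divided the controls. Prg2, the major basic protein, had 1.85 CPM in control 2, 2.75 CPM in control 5 and 28.8 to 49.8 CPM in the other 6 controls, against 50.01, 89.5, 64.4 and 100.3 CPM with the gluten-free diet. Epx, the eosinophil peroxidase, had 0.109 CPM in control 2, 0.134 CPM in control 5 and 3.19 to 8.47 CPM in the other 6, against 10.3, 18.6, 11.1 and 19.6 CPM. Controls 2 and 5 thus lay at a small fraction of the other controls in both genes. Siglecf, an eosinophil surface receptor, did not set those 2 controls apart, with 0.597 and 1.01 CPM in a control range of 0.501 to 1.60 CPM.

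T cell genes were higher, NK cell genes were called about as often as all genes, and the calls of B cell identity genes depended on control 8. All 18 T cell receptor and signalling genes rose (median 0.70), as did 10 of 10 genes of naive and 11 of 11 genes of regulatory T cells, under each scaling and without control 8. Lat, an adaptor of T cell receptor signalling, had 120, 120, 126 and 122 CPM against 63.0 to 86.3 CPM (control 5), a log2 fold change of 0.77 ± 0.09 (edgeR adjusted p = 1.85e-05). Trbc2, a receptor constant region, had 170, 162, 172 and 166 CPM against 84.8 to 128 CPM (control 5). The 4 gluten-free libraries lay close together in both genes and above every control. Foxp3, the factor of regulatory T cells, had 14.3, 11.3, 11.5 and 11.1 CPM against 4.68 to 11.4 CPM (control 8), and Cd8a had 74.0, 64.8, 70.7 and 67.5 CPM against 28.1 to 66.3 CPM (control 8), so control 8 reached the gluten-free range in each. Of 17 NK and cytotoxic genes 3 rose (17.6%, against 17.5% of all genes) and 2 fell, and without control 8 5 rose, where 23.3% of all genes did. Nkg7, a granule membrane protein, rose by 0.64, Klra4, a Ly49 receptor, fell by 1.01, and Gzma, granzyme A, had -0.06 and was not called. The Klra genes are close paralogs.

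Of 11 B cell identity genes only Cd79b and Fcmr passed the test with all 12 libraries. Without control 8 11 passed, where 23.3% of all genes were higher. Their summed level was 3904 CPM in control 8, above the gluten-free range of 2762 to 3831 CPM. Control 5, at 2819 CPM, and the highest of the remaining controls, at 2782 CPM, lay inside that range. The sums thus overlapped between the diets with control 8 and without it. Of 7 germinal centre B cell genes 4 rose and 1 fell, both with and without control 8. Of 10 marginal zone and follicular B cell genes 6 rose with all 12 libraries (60.0%, against 17.5% of all genes) and 10 without control 8. Cr2, a complement receptor of marginal zone and follicular B cells, had 519, 241, 249 and 313 CPM, 413 CPM in control 8, and 98.6 CPM in the lowest control (edgeR adjusted p = 0.0667 with all 12 libraries and 0.00318 without control 8). Gluten-free 7 was the highest of its group. Genes of early B cell formation were called with control 8 in place: 8 of 9 rose, with a median of 1.43, such as Vpreb3 (24.0, 25.3, 26.2 and 23.2 CPM against 15.2 to 21.0 CPM). Rag1, of the antigen receptor recombinase, had 5.91, 10.1, 8.54 and 6.57 CPM and overlapped only control 3, at 5.94 CPM.

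Antibody genes separated the diets within the plain-number IDs. Immunoglobulin genes held 1.098%, 1.09%, 1.04% and 1.097% of all counts in gluten-free 7 to 10 and 0.444% to 0.796% in the 8 controls, means of 1.08% ± 0.028 (SD, n = 4) and 0.559% ± 0.12 (SD, n = 8). This was the one of 12 library measures to pass (exact permutation p = 0.00202, two-sided, the smallest that 495 splits allow, adjusted p = 0.0242). Without control 8, 5 measures passed, among them the share of counts in the 10 most abundant genes and in long non-coding RNA genes, and without control 1, 3 passed. Without any 1 of the gluten-free libraries none passed. The fewer splits then left do not let 1 measure alone pass the adjustment over 12 measures, even with groups fully apart. That loss therefore says nothing of the immunoglobulin share. Of 11 constant regions 8 rose. Ighm, the mu heavy chain, had 3938, 4559, 4226 and 4375 CPM against 2066 to 3403 CPM (control 8), and Igkc, the kappa chain, had 2271, 2550, 2398 and 2690 CPM against 1189 to 1955 CPM. Both groups were apart. Igha, of the mucosal antibody IgA, rose by 1.26, with 199, 115, 157 and 237 CPM against 31.8 (control 8) to 123 CPM (control 4). Ighd, which marks mature naive B cells, had 0.39 and was not called (edgeR adjusted p = 0.112). Variable genes followed: 34 of 89 heavy chain V genes rose and 1 fell, and 25 of 66 kappa V genes rose. The median log2 fold changes of heavy chain V, kappa V and constant genes were 0.74, 0.68 and 0.68. In the S IDs they were -0.84, -0.69 and -0.31. The diet effect differed between the ID forms in 51 of 89, 28 of 66 and 4 of 11, against 24.8% of all genes, each lower in the S IDs. Of 10 plasma cell genes 8 rose, among them Jchain, the joining chain, by 0.75, and Mzb1, an antibody chaperone, by 0.62. Constant and variable genes have close relatives, so single values are less sure than the sums.

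Interferon and presentation genes went in different directions. Of 16 genes of the interferon gamma response and MHC class I 13 rose, led by Cxcl9, a T cell attracting chemokine (35.5, 28.3, 31.2 and 35.3 CPM against 11.3 to 26.1 CPM), and with B2m and H2-K1 at 0.34 and 0.48. The type I interferon list had 3 higher and 3 lower of 16, near the shares of all genes, and its median was -0.16 with TMM and 0.12 with the library total. Isg15, an interferon-induced ubiquitin-like protein, fell from 56.6 (control 8) to 157 CPM in controls to 35.8, 53.3, 38.6 and 42.3 CPM, and Rsad2, the antiviral enzyme viperin, had 160, 320, 250 and 248 CPM against 372 (control 8) to 711 CPM. Mx1 of the same list rose by 0.52. MHC class II genes rose in 4 of 10 with all libraries and in 9 of 10 without control 8. Cd74, the invariant chain, had 2048, 1982, 1759 and 1885 CPM against 1078 to 1637 CPM (control 8).

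Complement genes rose in 7 of 12 and none fell. C3, the central component, had 738, 883, 948 and 860 CPM against 349 to 564 CPM. Its groups did not overlap, and the receptor genes C5ar1 and C3ar1 of myeloid cells rose by 1.16 and 1.13. Of 10 inflammatory cytokine genes 2 rose, near the share of all genes: Tnf by 0.88 and Il12a by 0.77. Il1b had -0.05 and was not called. Of 8 anti-inflammatory cytokine and Socs genes 5 rose, among them Tgfb1 (195, 214, 216 and 183 CPM against 113 to 167 CPM) and Il1rn, the interleukin 1 antagonist, by 0.86. Il10 had 1.18, 1.11, 0.787 and 0.718 CPM against 0 to 0.691 CPM and missed the threshold (edgeR adjusted p = 0.0519). Of 15 genes tied to coeliac disease or gut homing 9 rose and 2 fell. Itgb7, the beta chain of the gut-homing integrin, rose by 0.57 and Itga4, its alpha partner, fell by 0.60. Il15 rose by 0.66, and Tgm2, the transglutaminase that is the coeliac autoantigen, fell by 0.44. Of white pulp genes 6 of 10 rose, with Madcam1, the vascular ligand of that integrin, at 19.9, 13.4, 13.9 and 16.8 CPM against 5.03 to 10.5 CPM.

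Capsule and support tissue varied between libraries. Of 9 mesothelium genes 4 rose, and 8 without control 4, with Msln at 32.1, 57.3, 69.3 and 46.9 CPM against 16.4 (control 5) to 50.9 CPM (control 4). Of 11 fibroblast and collagen genes 5 rose and 1 fell, with 3 rising without controls 5 and 8, and Dcn, the proteoglycan decorin, had 77.8, 140, 116 and 88.3 CPM against 37.5 to 62.1 CPM. Their summed levels were 64.9 to 188 CPM in control and 112 to 237 CPM in gluten-free libraries for the mesothelium, and 656 to 1249 CPM and 925 to 1494 CPM for fibroblasts, so both sums overlapped between the diets. The part of these tissues in other results was not tested. Pancreatic acinar genes came from control 4. Ctrb1, a chymotrypsinogen, had 248 CPM there, 2.01 CPM in control 7 and at most 0.188 CPM in the other 10 libraries, and 5 of 10 acinar genes were called lower with control 4 and 0 without it.

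The machinery of growth and respiration was lower by small steps. In the cytosolic ribosome 54 of 77 protein genes fell with TMM (median -0.31), but only 6 fell and 1 rose with the library total (median -0.02), and their share of counts was 5.48% ± 0.15 (SD, n = 8) and 5.36% ± 0.157 (SD, n = 4; exact permutation adjusted p = 0.309). Subunits of the proteasome fell in 34 of 39 and rose in 3, and with the library total 22 fell and 3 rose. The 3 that rose included the immune subunits Psmb8 and Psmb9, by 0.50 and 0.51. Of 37 complex I subunits 29 fell with TMM and 13 with the library total, and of 12 citric acid cycle genes 8 fell with TMM and 3 with the library total. Idh3a, of the isocitrate dehydrogenase, had 49.8, 46.6, 48.6 and 49.5 CPM against 63.9 to 80.4 CPM. Of the 12 protein genes of the mitochondrial genome none was called, and their median turned from -0.13 with TMM to 0.15 with the library total. Calls also differed by abundance: of the 3673 genes with the highest mean CPM 1839 fell and 589 rose. Processed pseudogenes, many of them copies of ribosomal protein genes, fell in 215 of 910 (23.6%), near the 22.1% of all genes. They rose in 13 (1.43%, against 17.5% of all genes). With the library total 87 fell and 32 rose. Reads of their parent genes may be counted there.

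Among long non-coding RNA genes 132 of 1747 rose and 181 fell, smaller shares than among protein-coding genes (20.3% higher and 24.6% lower). Bloodlinc, a regulator RNA of red cell maturation, fell by 2.02 ± 0.43 (edgeR adjusted p = 0.00152). It had 0.525, 0.400, 0.433 and 0.386 CPM with the gluten-free diet and up to 3.19 CPM in control 3, but 0.470 CPM in control 5, inside the gluten-free range. The largest rise among those of at least 1 CPM was 1700047M11Rik, with 2.98, 6.18, 6.22 and 8.39 CPM against 1.03 to 2.68 CPM. Fendrr, a mesenchymal RNA beside Foxf1, rose by 1.44. Among protein-coding genes of at least 10 CPM with separate groups, the lowest fold change was in Rnf212, a gene known from meiosis, which fell by 1.81. Next came Tac2, a tachykinin precursor (5.16, 10.0, 11.1 and 9.94 CPM against 16.9 to 43.8 CPM). After it came Syt14, a synaptotagmin (5.73, 7.95, 9.76 and 9.27 CPM against 18.4 to 33.5 CPM).

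The level of the red cell genes, which fell in nearly every list member, was also entered in the test as a covariate, as the mean log2 CPM of 50 erythroid genes. It was 7.82 to 8.50 in the gluten-free libraries, 8.76 in control 8 and 9.29 to 9.65 in the other controls. The groups do not overlap in it, so the fit compares them mostly beyond the range they share. With it edgeR called 680 genes in place of 7266, and 355 of these were called in the same direction without it, 305 higher and 50 lower. Hba-a1, lower without the covariate, had 1.01 with it and was called higher (edgeR adjusted p = 0.046). No libraries of the 2 diets share an erythroid level, so these values say nothing of levels at an equal red cell content.

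The same diets among the S IDs did not show these differences. Within those 8 libraries 0 genes were called by edgeR, with 1629 (8.87%) at an unadjusted p under 0.05. The difference between the 2 diet effects was tested as an interaction over all 20 libraries, and 4545 genes passed (24.8%), of which 2825 (15.4%) were more positive in the S IDs and 1720 (9.37%) more negative. They include 4057 of the 7266 genes called in the plain-number IDs. All 24 DNA replication genes and 15 of 16 megakaryocyte genes differed in this way, but only 1 of 18 T cell receptor genes and 0 of 11 B cell identity genes. The median log2 fold change of the DNA replication list was -1.11 in the plain-number and 0.16 in the S IDs, that of secondary granules 1.59 and -0.51, that of T cell receptor genes 0.70 and 0.29. Plek2, a late erythroblast protein, had a log2 fold change of -1.70 in the plain-number and 0.42 in the S IDs (edgeR adjusted p of the difference = 0.00223), and Mpo had 1.97 and -0.29 (edgeR adjusted p = 0.00806). Alox15, a lipoxygenase of eosinophils and peritoneal macrophages, had 1.29 and -1.90, and Prg4, the lubricin of mesothelium and joints, had 1.35 and -1.13. Of the 7266 genes 2217 (30.5%) had the same sign in both ID forms, and most had opposite signs. The log2 fold changes of the 2 ID forms correlated at -0.312 over these genes and at -0.227 over all genes tested. Both are Spearman correlations across genes, which are not independent replicates. What the letter S stands for is not stated, so a cohort, a batch and any other cause tied to it cannot be told apart.

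**Figure D4:**
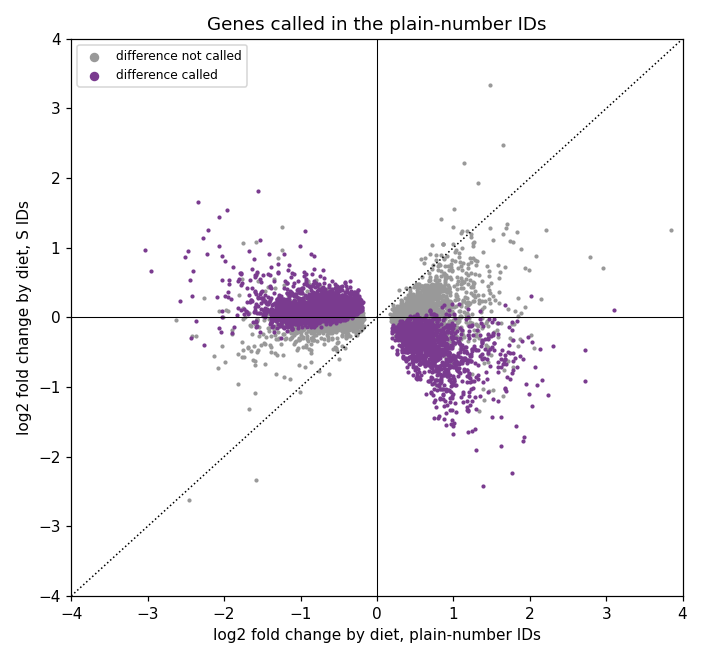
Log2 fold change by diet of the 7266 genes called in the plain-number IDs (x axis) and the same genes in the S IDs (y axis), with a dotted line where both are equal and colour for genes whose difference was called. Most points lie near 0 on the y axis, and 9 genes lie outside the axes.

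Control 5 was set against the other 7 controls as a description, with 1 library and no test. It lay outside their range and at least 2-fold from their mean in 1034 genes (5.63%), 357 above and 677 below. The same count for each other control ran from 493 for control 1 to 1230 for control 8. Among protein-coding genes of at least 10 CPM, highest above the others were Ccl21a, a lymphoid homing chemokine with several near-identical copies (122 CPM against 2.25 to 29.8 CPM), and 3 genes of the mitochondrial genome, mt-Co2 (122 CPM in control 5), mt-Co3 (51.0 CPM) and mt-Atp6 (41.8 CPM), where the controls' medians were 33.7, 16.1 and 12.6 CPM. The 12 protein genes of that genome summed to 19301 CPM in control 5, the highest of the controls, with the other 6 apart from control 8 at 10865 to 18967 CPM. Their median difference from the other 7 controls was 0.93 on the log2 scale. As a share of counts the mitochondrial genome held 2.05% in control 5, in a control range of 1.12% to 2.14%. Furthest below were Prg2 and Alox15, and Lars2, a mitochondrial leucyl-tRNA synthetase (199 CPM, control median 879 CPM). CT010467.1, annotated at a ribosomal RNA locus, had 1272 CPM against a control median of 4344 CPM. Lars2 and CT010467.1 were both counted here among genes resembling ribosomal RNA. Those genes held 0.441% of counts in control 5, the lowest of the controls, which reached 0.8037%. The low Lars2 value is therefore not read as a trait of mitochondria. Ctrb1 and Pnlip appear in the same ranking only because control 4 raised the mean. Its Klf1 (460 CPM) and Mpo (117 CPM) lay outside the gluten-free range, on the side of the other controls. Over all genes its rank correlation (Spearman, across genes, which are not independent replicates) was 0.976 to 0.982 with the other plain-number controls, 0.977 to 0.985 with the S controls, 0.980 to 0.988 with the gluten-free S libraries and 0.965 to 0.974 with the plain-number gluten-free libraries. On the second component of all 20 libraries it scored -20.4, among the S libraries at -34.5 to -13.2 and away from the other plain-number controls at 21.0 to 37.5. The plain-number gluten-free libraries lay between those ranges, at -1.2 to 3.0. Leaving control 5 out moved the count of called genes from 7266 to 7381.

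**Figure D5:**
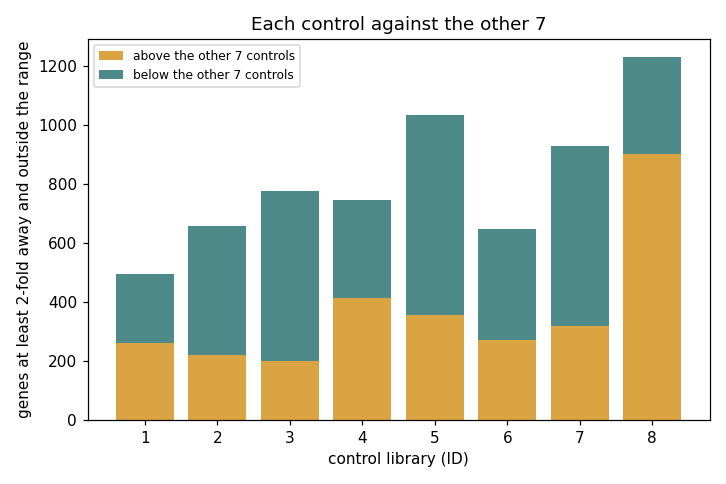
Number of genes in which each control lay outside the range of the other 7 and at least 2-fold from their mean, split into genes above and below. Control 5 has 1034 such genes, mostly below, and control 8 has 1230, mostly above.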

How the data were processed

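RNA of whole mouse spleen was sequenced on an Illumina NovaSeq, per the labels' protocols. The values are raw counts per gene that the authors deposited in 1 table of 54532 genes and 20 libraries. The submitters' processing notes name CASAVA, HISAT2 2.0.5, featureCounts 1.5.0 and GRCm38 (mm10); strand setting, annotation release and the treatment of reads with several matches are not given in the sources used here, so overlapping, antisense and paralogous genes are uncertain. Groups came from the labels.

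Genes were filtered with filterByExpr over the 20 libraries in 4 groups, which left 18362 of the 31743 with a count in the 12 plain-number libraries. The diets were compared with edgeR 4.0.16 (R 4.3.3) by the quasi-likelihood test after TMM scaling, with no covariate and Benjamini-Hochberg adjustment, and called at an adjusted p under 0.05. The difference from the S IDs was an interaction over the 20 libraries. Library measures were compared by exact permutation. On simulated counts 122 of 200 genes changed 2-fold were recovered, with 10 false calls among 18362 genes. No replicate pair held identical values. Alternatives were other scalings, filters, tests (DESeq2 1.42.0, limma 3.58.1), left-out libraries, a replicate block and an erythroid covariate. Leaving out controls 5 and 8 together, and the list counts without controls 4, 5 or 8, were added after seeing the data.

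The comparison and the gene lists were chosen with earlier results of these data known. Genes are named where they are members of a list, or by rule: of called protein-coding genes with at least 10 CPM and groups that do not overlap, the 12 that rose most and the 12 that fell most, the 10 most abundant genes, the 5 highest and 5 lowest called long non-coding RNAs of at least 1 CPM, the 5 highest and 5 lowest in control 5, and the 5 in each direction that differed most from the S IDs. Some genes are not reported here. Promoters came from RefSeq on GRCm38.p6. They matched 79.3% of protein-coding genes tested, under the 80% needed, so motif shares by call are void and not given.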

Additional observations from a re-analysis of the deposited data

Results flagged for a closer look

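Within groups of 4 to 8 libraries, 8 of 92 sets of values examined (8.7%) had 1 library set apart. It was flagged where its gap to the nearest library was large against the range of its group. For independent sets chance gives about 1 in 20, but these sets share libraries and genes, so 8.7% is not judged against it. Immunoglobulin genes held 1.04% of counts in gluten-free 9, against 1.09% to 1.098% in the others of its group, a small gap flagged because those lay close together. Ribosomal protein genes held 5.15% in control 1, against 5.454% in the nearest control. Genes resembling ribosomal RNA held 0.7477% in gluten-free 7, against 0.5854%. CT010467.1, one of these genes, had 1272 CPM in control 5 (nearest 4135 CPM) and 3927 CPM in gluten-free 7 (nearest 3089 CPM). Of genes that fell with the gluten-free diet, Sec14l2 was lowest in gluten-free 7 (21.96 CPM, nearest 27.06 CPM), Nrip3 highest in gluten-free 8 (6.31 CPM, nearest 4.841 CPM) and Bex4 lowest in control 8 (18.96 CPM, nearest 31.67 CPM).

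The diet effect differed between the plain-number and the S IDs in 4545 genes by the interaction test. As log2 fold change in the S IDs minus that in the plain-number IDs, the lowest differences among called protein-coding genes of at least 10 CPM were Alox15 at -3.191, Fmo2 at -2.674, Prg4 at -2.479, Efemp1 at -2.449 and Myrf at -2.388. The highest were Ctrb1 at 25.361, Plek2 at 2.114, Ccnb1ip1 at 2.054, Clcn2 at 2.0 and Tmem56 at 1.994. The Ctrb1 value rests on control 4 and on gluten-free libraries at 0, and is a fitted number with no bound.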

How the results depend on the processing

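RLE and upper quartile scaling, both filters, DESeq2, limma-voom, the robust fit, protein-coding genes alone, the 20-library fit and the leaving out of any library kept the count of calls within 1.5 times of 7266. The library total gave 6522 genes higher and 2043 lower, as all fold changes shift up by construction. An adjusted p under 0.01 left 4528 genes, 1577 of them higher, and a test against a 1.5-fold change left 817, 159 higher and 658 lower. Leaving out 1 library gave 5888 to 8684 genes, 2416 to 4276 higher and 3472 to 4408 lower. For the difference from the S IDs it gave 3273 genes (without control S1) to 5418. For the library measures it gave 0 (without any 1 of the gluten-free libraries) to 5 (without control 8). With a gluten-free library left out, too few splits remain for 1 measure alone to pass. The 1034 genes of control 5 were 421 among genes of at least 1 CPM.

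Only IDs 7 and 8 occur in both diets, and the labels do not pair them. Deviations of same-numbered libraries correlated at -0.172 and -0.197. On these 4 libraries the replicate block called 38 genes, 26 higher and 12 lower, and no block called 0, 0 higher and 0 lower, with few libraries in either.

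With the erythroid covariate 680 genes were called, 371 higher and 309 lower, and of 155 named genes called without it 117 were no longer called. In 24 of the 155 the sign turned, and 1 of these, Hba-a1, was called (edgeR adjusted p = 0.046); the cause was not tested. Those 24 had log2 values of 0.386 in Hbb-bs, 0.521 in Hbb-bt, 1.006 in Hba-a1, 0.07 in Epor, 0.285 in Pim1, 0.094 in Cdkn1a, 0.535 in Bcl2l1, 0.051 in Rsad2, 0.086 in Isg15, 0.112 in Atf4, 0.094 in Mylpf, 0.616 in Acta1, 0.878 in Cpb1, -0.393 in Fcmr, -0.297 in Cd79b, -0.566 in Dtx1, -0.748 in S1pr3, -0.105 in Tcf7, -0.179 in H2-Oa, -0.263 in Tnf, -0.018 in Itgb7, -0.104 in Bhlhe40, -0.597 in Bcl2 and -0.741 in Galnt6os.

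With 4 gluten-free libraries, 61% of simulated 2-fold changes were found at this depth. The simulation changed only 200 of 18362 genes, where 7266 were called in the data. An adjusted p under 0.05 was therefore harder to reach in it, and 61% is not the share that the real comparison would find. The lack of a call does not show that a gene's levels were equal.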

Other observations

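Some groups of genes outside the account above had these counts with the gluten-free diet. Of 26 integrin genes 16 rose and 1 fell, and of 31 ligands and receptors of the TNF family 16 rose and 2 fell. Of 15 Toll-like receptor genes 6 rose, and 10 without control 8. Circadian clock genes rose in 6 of 15. All 6 tested subunits of the chaperonin CCT fell with TMM scaling, and 2 with the library total. These lists were described by counts alone.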
